A study of Mus musculus with 12 samples.

Results

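Transforming growth factor beta (TGF-beta) signaling was described through 9 genes in mouse embryonic fibroblasts (MEFs) with and without ARF, the p19 tumor suppressor encoded by the Arf transcript of Cdkn2a. The genes were the ligands Tgfb1, Tgfb2 and Tgfb3, the receptors Tgfbr1, Tgfbr2 and Tgfbr3, the signal transducer Smad3, the inhibitor Smad7 and the secreted target Tgfbi. They were chosen by name, as the core of a pathway whose ligand Tgfb2 is reported to induce Arf, with earlier results of these data known. All 9 were found among the 20661 genes of every count table. Levels were measured by RNAseq and by ribosome profiling, which sequences the RNA fragments that ribosomes protect (footprints). There were 12 libraries, with 2 per assay in each of 3 groups, all from passage 4 MEFs transduced with a lentiviral shRNA and selected with puromycin. WT-shSCR MEFs were wildtype and carried a scrambled shRNA. WT-shARF MEFs were wildtype and carried an shRNA against Arf. ArfKO-shSCR MEFs were Arf-/- (strain B6.129X1-Cdkn2atm1Cjs/KaiJ, in which a neo cassette replaces exon 1β of Cdkn2a) and carried the scrambled shRNA. The wildtype strain is given as C57BL/6J in the labels and as B6129SF2/J in the methods of the study, so that strain and Arf genotype cannot be told apart. The labels do not say whether replicates came from separate embryos or cultures, and p-values then measure only the spread between these libraries.

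TGF-beta ligands are secreted in a latent form, bound to their propeptide and to matrix proteins, and have to be released before they can act. The active ligand binds the type II receptor (Tgfbr2), which phosphorylates the type I receptor (Tgfbr1), which in turn phosphorylates Smad2 and Smad3; these enter the nucleus with Smad4. Smad7 is induced by the pathway and blocks the type I receptor. In fibroblasts the pathway is known for raising matrix and contractile genes and for slowing the cell cycle, in part through the inhibitor gene Cdkn2b.

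Between 1578627 and 3989908 reads per RNAseq library and between 2544319 and 5157572 per ribosome profiling library were assigned to coding sequences. Cdkn2a, whose reads come from Arf and from the overlapping p16 transcript without distinction, checked the labels. Its RNA level was 43.6 and 40.8 counts per 1000000 reads (CPM) in WT-shSCR, 27.0 and 31.4 in ArfKO-shSCR, and 625 and 651 in the libraries labelled WT-shARF. The gene targeted by the shRNA was therefore higher by 3.91 ± 0.16 (log2, SE) in the libraries labelled WT-shARF than in WT-shSCR, with edgeR adjusted p = 5.57e-18. The count does not tell whether Arf or p16 RNA rose. The study shows an immunoblot of ARF knockdown in MEFs and states that the shRNA leaves INK4A (p16) expression unaffected. Since the count goes against the label, these samples are called the libraries labelled WT-shARF throughout. In ArfKO-shSCR the Cdkn2a RNA change of -0.54 ± 0.25 did not pass (adjusted p = 0.197), and the footprints changed by -1.10 ± 0.19, adjusted p = 4.67e-05. All 14 fibroblast markers, among them Fn1, Vim, Col1a1 and Col1a2, had reads in every group. Their summed RNA was 22723 and 26286 CPM in WT-shSCR, 23550 and 23714 in the libraries labelled WT-shARF, and 18432 and 17181 in ArfKO-shSCR. Their summed footprints were 53747 and 50397, 57996 and 57866, and 40463 and 40421 CPM in the same order of groups. Fn1 weighs on these sums, with 6975 and 9818 CPM of RNA in WT-shSCR against 3072 and 2908 in ArfKO-shSCR. The markers moved both ways in the knockout. Of 13 tested, edgeR called 3 higher and 2 lower in RNA (median change -0.04, log2). In footprints 5 were higher and 4 lower of 13 (median 0.14). Of all genes 3.94% were higher and 3.99% lower in RNA, and 9.57% and 8.95% in footprints. The summed level of 16 macrophage markers differed between groups, at 755 and 747 CPM of RNA in WT-shSCR, 378 and 287 in the libraries labelled WT-shARF, and 68.8 and 112 in ArfKO-shSCR, and none of the 16 was at 0 in both libraries of a group. Its footprint sum was 943 and 908 CPM in WT-shSCR, 456 and 370 in the libraries labelled WT-shARF, and 64.6 and 91.1 in ArfKO-shSCR. In the knockout 14 of 16 of these markers were lower in RNA and 15 of 15 tested in footprints. The summed level of 9 epithelial or mesothelial markers was 161 and 180.3 CPM of RNA in ArfKO-shSCR against 94.1 and 94.9 in WT-shSCR. Fewer cells of a type and less RNA per cell cannot be told apart in these bulk samples.

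The study asked which mRNAs change in translation after loss of ARF, and described the mRNAs that start with a C and a run of pyrimidines (5′-TOP mRNAs). The RefSeq start sites of 6 members are therefore shown. Each line gives 30 bases, 15 before and 15 from the start site on, with a pyrimidine run that begins at the start site in capitals.
Tgfb1, chr7:25686987-25687016 (GRCm38.p6, plus strand): cgccccagccggtccCgccgccgccgccgc
Tgfb2, chr1:186705975-186706004 (minus strand): gggcagaatcgtgatgttatctgctggcag
Tgfbr1, chr4:47353207-47353236 (plus strand, the upstream of its start sites): cgaggccgcggcggcggcggggaggtgggg
Tgfbr2, chr9:116175349-116175378 (minus strand): ggaaggctctccggcggcgagaggtcctgc
Smad3, chr9:63757980-63758009 (minus strand): actttccttcccggaggcggcacccaaaca
Tgfbi, chr13:56609571-56609600 (plus strand): cgctgccccgctgctCTCacttcaccagca
None of the 7 RefSeq start sites of the members in the table used here (Tgfb3, Tgfbr3 and Smad7 have no entry) began with a C followed by at least 4 pyrimidines on the transcribed strand. Of all 32851 start sites 2.51% did, and of 68 start sites of genes on the study's 5′-TOP list 17.6% did. These letters describe the annotated window and nothing about the start used in MEFs.

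Tgfb3 was the most abundant of the 9 genes in both assays and all groups. Levels between genes were compared as CPM per kilobase of coding sequence. In WT-shSCR RNA, Tgfb3 was at 326 ± 33.5 CPM per kilobase (SD, n = 2), Tgfbr2 at 41.8 ± 2.48, Smad7 at 31.0 ± 0.16, Smad3 at 26.4 ± 2.13, Tgfb2 at 25.2 ± 3.95, Tgfbi at 23.1 ± 2.46, Tgfb1 at 19.6 ± 6.82, Tgfbr1 at 11.7 ± 4.15 and Tgfbr3 at 0.728 ± 0.015. Tgfb3, Tgfbr2, Smad7, Tgfbr1 and Tgfbr3 each stood apart from their neighbours in this order in both libraries. The values of Smad3, Tgfb2, Tgfbi and Tgfb1 overlapped.

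In footprints Tgfb3 was again first, and Tgfb2 stood above Tgfb1 in both libraries. WT-shSCR footprint levels were 205 ± 3.47 CPM per kilobase for Tgfb3, 72.3 ± 0.75 for Tgfb2 and 40.6 ± 6.07 for Tgfb1. Of the summed ligand level, Tgfb3 took 87.8% ± 3.66 in WT-shSCR RNA and 64.5% ± 1.00 in footprints. The share of Tgfb2 was 6.84% ± 1.49 in RNA and 22.8% ± 0.50 in footprints. In each group the Tgfb2 share was higher in both footprint libraries than in both RNA libraries, and the Tgfb3 share was lower.

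Translation efficiency (TE), the ratio of footprints to RNA, differed between the ligands. TE levels are given as log2 values from 1 fit over all 12 libraries, each with its SE and its percentile among 11603 genes. Tgfb2 had the highest TE of the 9 genes in each group, at 1.54 ± 0.20 (95.1st percentile) in WT-shSCR, 1.57 ± 0.19 (96.3rd) in the libraries labelled WT-shARF and 1.81 ± 0.21 (97.2nd) in ArfKO-shSCR. Tgfb1 was at 1.09 ± 0.33, 0.90 ± 0.33 and 0.66 ± 0.33 in the same order of groups. Tgfb3, the most abundant ligand, had low TE levels of -0.68 ± 0.13, -0.55 ± 0.13 and -0.69 ± 0.13. In WT-shSCR the SE ranges of Tgfb2, Tgfb1 and Tgfbr3 (1.22 ± 0.80) overlapped, whereas those of Tgfb2 and Tgfb3 did not in any group.

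Among the receptors, TE was 0.73 ± 0.34 for Tgfbr1 and -0.74 ± 0.21 for Tgfbr2 in WT-shSCR, placing them at the 80.0th and 23.5th percentile. Tgfbr2 was at 0.13 ± 0.20 in the libraries labelled WT-shARF and at 0.10 ± 0.21 in ArfKO-shSCR. Smad3 (0.12 ± 0.25), Tgfbi (0.01 ± 0.24) and Smad7 (-0.07 ± 0.24) lay near the median of all genes in WT-shSCR.

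**Figure D1:**
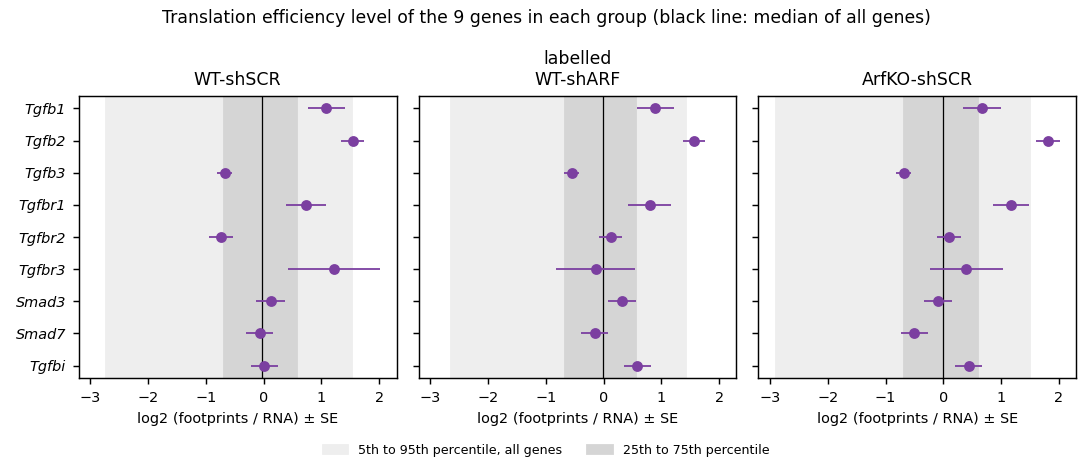
Translation efficiency level (log2 of footprints over RNA, horizontal axis) of the 9 genes in the 3 groups, with SE bars; grey bands give the 5th to 95th and the 25th to 75th percentile of all genes and the black line their median. Tgfb2 is the highest point in every panel (1.54, 1.57 and 1.81) and Tgfb3 stays near the 25th percentile. Tgfbr2 is at -0.74 in WT-shSCR and at 0.13 and 0.10 in the other groups. Neither Tgfbr2 change passed (edgeR adjusted p = 0.437 and 0.530), and both use the same WT-shSCR libraries.

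Loss of Arf was compared first between ArfKO-shSCR and WT-shSCR. Of the 8 members tested in RNA, Tgfbr2 fell and no other passed the test, against a background in which 7.93% of 10659 genes changed (3.94% higher, 3.99% lower). In footprints Tgfb1 and Tgfb2 fell, 2 of 9 members, where 18.5% of 10737 genes changed (9.57% higher, 8.95% lower). The member counts are therefore close to the background in both assays. The median change of the members was -0.28 in RNA and -0.20 in footprints (log2), and that of all genes was 0.00 in both.

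**Figure D2:**
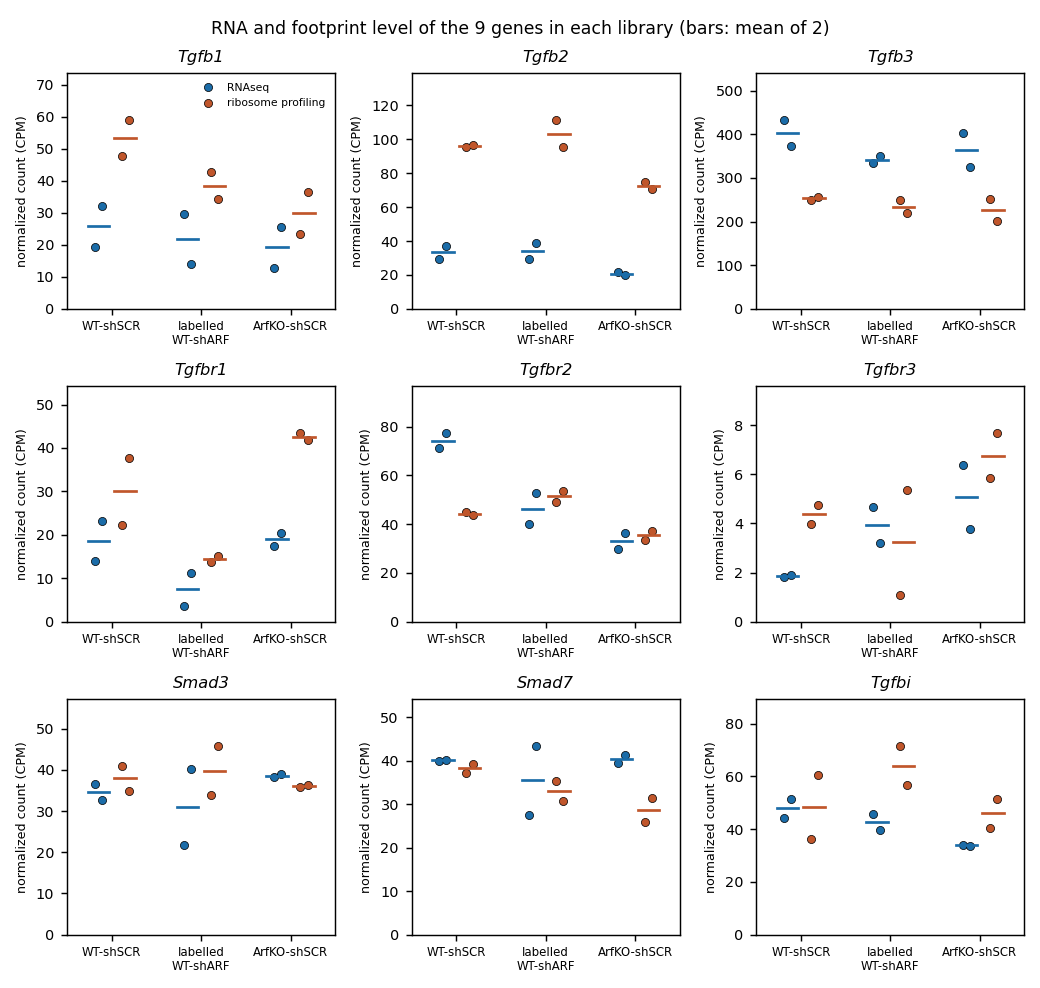
Normalized counts (CPM, vertical axes from 0, a scale of its own for each gene) of the 9 genes in each RNAseq (blue) and ribosome profiling (orange) library, with bars at the mean of 2. Tgfbr2 RNA is lowest in ArfKO-shSCR (29.8 and 36.4), Tgfb2 footprints are lower in ArfKO-shSCR (74.7 and 70.5) than in the other groups, and Tgfbr1 footprints are lowest in the libraries labelled WT-shARF (13.9 and 15.1).

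Tgfbr2 encodes the receptor that binds the ligand first. Its RNA was 71.1 and 77.3 CPM in WT-shSCR (194 and 123 reads), 40.0 and 52.7 in the libraries labelled WT-shARF (77 and 231 reads), and 29.8 and 36.4 in ArfKO-shSCR (84 and 87 reads). The 3 groups did not overlap, with WT-shSCR highest and ArfKO-shSCR lowest. The knockout change was -1.17 ± 0.22 (log2, SE), edgeR adjusted p = 0.00206, and it passed with DESeq2 as well (adjusted p = 0.00916). Of the alternatives run, it missed the threshold only without WT-shSCR RNAseq replicate 2 (adjusted p = 0.0543).

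Tgfbr2 footprints did not show this order. They were 44.9 and 43.7 CPM in WT-shSCR, 49.2 and 53.5 in the libraries labelled WT-shARF, and 33.5 and 37.4 in ArfKO-shSCR. The footprint change in the knockout was -0.36 ± 0.20, adjusted p = 0.244. The TE change of Tgfbr2, 0.77 ± 0.29, was the highest of the 9 members and had an unadjusted p of 0.0146 in edgeR, but an adjusted p of 0.530. DESeq2 gave 0.81 ± 0.38 with an unadjusted p of 0.0328 and no adjusted p.

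Tgfb1, the isoform best known from immune cells and platelets, had footprints of 47.6 and 58.8 CPM in WT-shSCR (143 and 148 reads) and 23.4 and 36.5 in ArfKO-shSCR (116 and 181 reads). These groups did not overlap. The change was -0.86 ± 0.22, adjusted p = 0.00509, and DESeq2 did not call it (adjusted p = 0.0676). The call was lost without WT-shSCR RiboSeq replicate 1, WT-shSCR RiboSeq replicate 2 or ArfKO-shSCR RiboSeq replicate 1 (adjusted p of 0.203, 0.303 and 0.218). The macrophage marker sum had the same order of groups as the mean Tgfb1 footprints, and its part in the Tgfb1 result was not tested. The order of Tgfb1 did not hold by library, as ArfKO-shSCR overlapped the libraries labelled WT-shARF (42.6 and 34.2 CPM). These groups differed by -0.37 ± 0.23 (edgeR adjusted p = 0.390). Tgfb1 RNA was 19.4 and 32.0 CPM in WT-shSCR and 12.8 and 25.5 in ArfKO-shSCR, which overlapped; its change of -0.41 ± 0.36 had an adjusted p of 0.551.

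Tgfb2, a ligand with known roles in the developing eye and heart, had footprints of 95.2 and 96.6 CPM in WT-shSCR (286 and 243 reads) and 74.7 and 70.5 in ArfKO-shSCR (370 and 349 reads). The groups did not overlap and differed by -0.44 ± 0.15, adjusted p = 0.0392. This call did not hold with DESeq2 (adjusted p = 0.207) or without the filter on low counts (adjusted p = 0.0859), nor when any of the 4 libraries was left out (adjusted p of 0.176 to 0.30). Its RNA was 29.7 and 37.1 CPM in WT-shSCR and 21.6 and 19.7 in ArfKO-shSCR, a change of -0.68 ± 0.28 with adjusted p = 0.160. Without either WT-shSCR ribosome profiling library no gene of 11391 or 11340 tested passed in this footprint comparison.

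Tgfb3, a ligand required for palate closure, was 432 and 373 CPM of RNA in WT-shSCR and 403 and 326 in ArfKO-shSCR. Its changes were -0.15 ± 0.15 in RNA (adjusted p = 0.628) and -0.20 ± 0.12 in footprints (adjusted p = 0.272). The 2 groups overlapped in both assays.

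Tgfbr1, the kinase that phosphorylates the Smads, had nearly equal RNA in the 2 genotypes, with 13.9 and 23.3 CPM in WT-shSCR and 17.4 and 20.5 in ArfKO-shSCR. Footprints were 22.3 and 37.8 CPM in WT-shSCR and 43.4 and 41.8 in ArfKO-shSCR. The footprint change of 0.48 ± 0.23 did not pass (adjusted p = 0.162). Tgfbr3, the co-receptor betaglycan, had 3 to 5 RNA reads in WT-shSCR and 9 to 18 in ArfKO-shSCR and was not tested in RNA. In footprints it had 12 and 12 reads against 29 and 38, a change of 0.59 ± 0.57.

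Smad3, Smad7 and Tgfbi did not pass in either assay. Smad3 RNA was 36.6 and 32.7 CPM in WT-shSCR and 38.3 and 38.9 in ArfKO-shSCR, a change of 0.14 ± 0.24, and its footprints changed by -0.11 ± 0.21. Smad7 RNA was 39.9 and 40.2 CPM against 39.4 and 41.4, a change of 0.01 ± 0.23, beside a footprint change of -0.46 ± 0.23 (adjusted p = 0.170). Tgfbi, which encodes a matrix protein, had RNA of 44.3 and 51.5 CPM in WT-shSCR against 34.0 and 33.5 in ArfKO-shSCR. The Tgfbi groups did not overlap in RNA, and the change of -0.50 ± 0.23 had an unadjusted p of 0.0455 and an adjusted p of 0.212. Its footprints overlapped, with 36.3 and 60.4 CPM against 40.6 and 51.3.

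No member changed in TE in the knockout by edgeR, where 0.194% of 11314 genes did, and 1 of 9 (Tgfbr2) had an unadjusted p under 0.05. The share of all genes under that unadjusted threshold is not given, so nothing is read from such counts here or below. DESeq2 gave an adjusted p to only 1 of the 9 (Tgfb3) and called none. The TE changes lay between -0.88 ± 0.93 for Tgfbr3 and 0.77 for Tgfbr2. Tgfb2, the member with the highest TE level, changed by 0.20 ± 0.29, and Tgfb1 by -0.49 ± 0.45. The SE of these changes ran from 0.19 to 0.93.

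**Figure D3:**
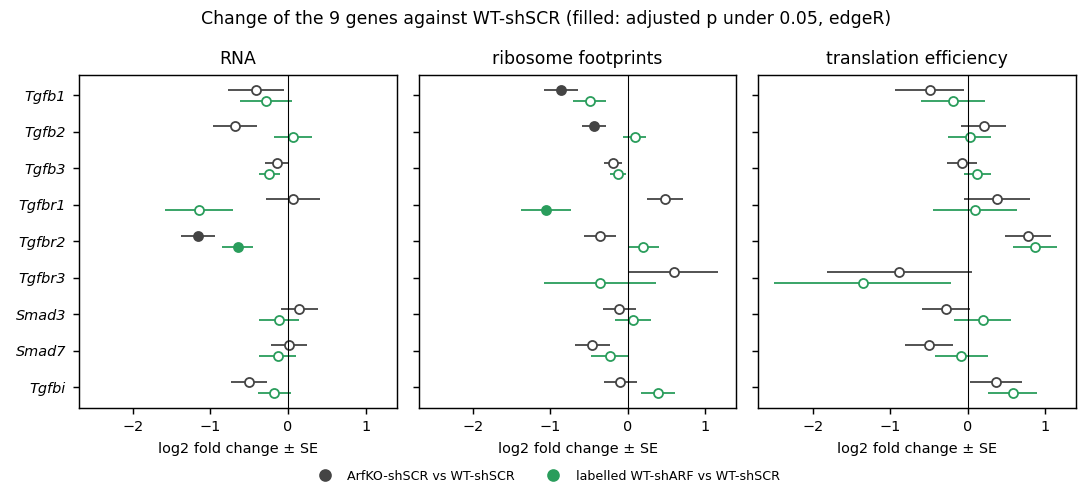
Log2 fold change with SE (horizontal axes) of the 9 genes against WT-shSCR in RNA, footprints and translation efficiency, for ArfKO-shSCR (grey) and the libraries labelled WT-shARF (green); filled points have an edgeR adjusted p under 0.05. Filled are Tgfbr2 in RNA (both), Tgfb1 and Tgfb2 in knockout footprints and Tgfbr1 in footprints of the libraries labelled WT-shARF, and no point is filled in translation efficiency.

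The libraries labelled WT-shARF were compared with the same WT-shSCR libraries, so this comparison shares its controls with the knockout comparison. In RNA 1 of 8 members, Tgfbr2, fell, where 7.28% of 10503 genes changed (3.11% higher, 4.17% lower). In footprints 1 of 9, Tgfbr1, fell, where 11.1% of 10307 genes changed (5.63% higher, 5.5% lower). No member changed in TE by edgeR, where 0.0354% of 11289 genes did, with 1 of 9 at an unadjusted p under 0.05 and none called by DESeq2, which adjusted the p of 1 member. The members' median change was -0.21 in RNA and -0.13 in footprints.

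Tgfbr2 RNA changed by -0.65 ± 0.20, adjusted p = 0.0398. The call was lost with DESeq2 (adjusted p = 0.185), in a fit of all groups together (adjusted p = 0.0805) and without any 1 of the 4 libraries (adjusted p of 0.0526 to 0.406). Its footprints changed by 0.20 ± 0.20, adjusted p = 0.626. The TE change was 0.86 ± 0.28, with an unadjusted p of 0.00445 and an adjusted p of 0.437.

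Tgfbr1 had the most negative change of the members in these libraries, in RNA and in footprints. Its footprints were 13.9 and 15.1 CPM (38 and 70 reads) against 22.3 and 37.8 in WT-shSCR, without overlap. The change was -1.06 ± 0.32, adjusted p = 0.0285. DESeq2 gave an adjusted p of 0.101, and the call was lost without WT-shSCR RiboSeq replicate 2 (-0.63, adjusted p = 0.401), without WT-shARF RiboSeq replicate 1 (adjusted p = 0.111) and without WT-shARF RiboSeq replicate 2 (adjusted p = 0.0984). The RNA of Tgfbr1 was 3.64 and 11.2 CPM (7 and 49 reads) against 13.9 and 23.3, a change of -1.15 ± 0.44 with adjusted p = 0.112. This RNA change was called without WT-shSCR RNAseq replicate 1 (-1.50, adjusted p = 0.0417) and without WT-shARF RNAseq replicate 2 (-2.29, adjusted p = 0.0229), and it was -0.78 and -0.69 without the other library of each group, where it did not pass.

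The other members did not pass in the libraries labelled WT-shARF. Tgfb1 footprints were 42.6 and 34.2 CPM, below both WT-shSCR libraries, and changed by -0.49 ± 0.22 (adjusted p = 0.152), beside the lower macrophage marker sums given above. Tgfb1 RNA changed by -0.29 ± 0.33. Tgfb2 was 29.1 and 38.8 CPM in RNA and 111 and 95.5 in footprints, which overlapped WT-shSCR in both assays, with changes of 0.07 ± 0.24 and 0.09 ± 0.15. Tgfb3 changed by -0.24 ± 0.13 in RNA and -0.13 ± 0.11 in footprints. Tgfbi footprints of 71.4 and 56.5 CPM overlapped WT-shSCR. Their change of 0.39 ± 0.22 had an adjusted p of 0.291, and was called only without WT-shSCR RiboSeq replicate 2 (0.80, adjusted p = 0.0145); Tgfbi RNA changed by -0.18 ± 0.21. Smad3 and Smad7 changed by -0.11 ± 0.26 and -0.14 ± 0.24 in RNA and by 0.06 ± 0.23 and -0.24 ± 0.24 in footprints. Tgfbr3, with 3 and 25 footprint reads, changed by -0.36 ± 0.73.

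ArfKO-shSCR was also compared directly with the libraries labelled WT-shARF, which tests whether the effects differ. In RNA 0 of 9 members passed with edgeR and 0 with DESeq2, where 2.57% of 10632 genes did, and 3 of 9 had an unadjusted p under 0.05. In footprints 2 of 9 passed, where 8.23% of 10941 genes did, and in TE 0 of 9 by edgeR, where 0.043% did, with 0 at an unadjusted p under 0.05 and 0 by DESeq2. Tgfbr1 footprints were 43.4 and 41.8 CPM in ArfKO-shSCR against 13.9 and 15.1, higher by 1.53 ± 0.22 with adjusted p = 0.000204 (DESeq2 adjusted p = 0.000158). The Tgfbr1 RNA difference was 1.20 ± 0.42, adjusted p = 0.166. Tgfb2 footprints differed by -0.53 ± 0.14, adjusted p = 0.0255 (DESeq2 adjusted p = 0.0750), and Tgfb2 RNA by -0.75 ± 0.26, adjusted p = 0.152. Tgfbr2 footprints differed by -0.57 ± 0.17 with adjusted p = 0.0528, and passed only with RLE factors (the scaling of DESeq2, adjusted p = 0.04999). Without WT-shARF RiboSeq replicate 1 or replicate 2, neither Tgfbr1 (1.49 and 1.57) nor Tgfb2 (-0.40 and -0.66) passed, and 0 and 1 genes of all tested did. Without ArfKO-shSCR RiboSeq replicate 2 the Tgfb2 difference had an adjusted p of 0.0999, and that of Tgfbi footprints, -0.50 ± 0.18 with adjusted p = 0.113, passed (-0.68, adjusted p = 0.0477).

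The other genes of the pathway were read from 6 lists of 111 genes in all. In the knockout, 7 were higher and 17 lower of 104 tested in RNA, and 11 higher and 35 lower of 104 in footprints. For the libraries labelled WT-shARF, 7 were higher and 14 lower in RNA of 104, and 10 higher and 23 lower in footprints of 102. With DESeq2 the knockout counts were 1 higher and 17 lower in RNA and 7 higher and 32 lower in footprints. The counts moved with the library left out. The knockout RNA counts were 1 higher and 7 lower without WT-shSCR RNAseq replicate 1, 1 and 6 without WT-shSCR RNAseq replicate 2, and 3 and 14 without ArfKO-shSCR RNAseq replicate 2. The knockout footprint counts were 0 and 0 without either WT-shSCR RiboSeq library, 6 and 29 without ArfKO-shSCR RiboSeq replicate 1, and 7 and 31 without ArfKO-shSCR RiboSeq replicate 2. In the libraries labelled WT-shARF they were 5 higher and 7 lower in RNA without WT-shARF RNAseq replicate 1 and 2 and 3 without WT-shARF RNAseq replicate 2, and in footprints 4 and 18 or 6 and 20 without WT-shARF RiboSeq replicate 1 or 2. Of all genes tested, 3.94% were higher and 3.99% lower in knockout RNA, and 9.57% and 8.95% in knockout footprints. In the libraries labelled WT-shARF these shares were 3.11% and 4.17% in RNA and 5.63% and 5.5% in footprints. The counts here and for each list below stand beside these shares. The lists were chosen with earlier results of these data known, and nothing is read from the counts as particular to the pathway.

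Of the genes of ligand latency and activation, 8 of 18 tested fell and 2 rose in knockout RNA. Of all genes 3.99% fell and 3.94% rose there. In footprints 12 of 19 fell and 3 rose, where 8.95% of all genes fell and 9.57% rose. The list medians were -0.45 and -0.57. Bmp1, a protease that trims latent TGF-beta binding proteins and procollagens, had 386 and 416 CPM of footprints in WT-shSCR against 183 and 193 in ArfKO-shSCR, a change of -1.13 ± 0.11 (adjusted p = 1.08e-09), beside -1.03 ± 0.16 in RNA. In footprints Mmp2, a matrix protease, fell by 0.92 and Ltbp2, a matrix protein related to the latent TGF-beta binding proteins, fell by 0.90. In RNA Lrrc32, the cell surface anchor of latent TGF-beta, fell by 0.94 and the proteoglycan Bgn fell by 0.87. Fbn2, a microfibril component, was higher by 0.73 in RNA and 0.84 in footprints, and Ltbp4 by 1.03 and 0.48. Dcn, a proteoglycan that binds TGF-beta, rose in footprints from 4 and 11 reads to 76 and 56. Against WT-shSCR, the libraries labelled WT-shARF had 3 of 18 lower and 2 higher in RNA, and 8 of 18 lower and 2 higher in footprints. Of all genes 4.17% were lower and 3.11% higher in RNA, and 5.5% and 5.63% in footprints. Bmp1 fell there as well (-0.72 in RNA and -0.75 in footprints), as did Ltbp2 (-0.43 and -0.57), Lrrc32 footprints (-0.64) and Bgn RNA (-0.53), while Fbn2 (0.60 and 0.51) and Fbn1 (0.49 and 0.24) rose.

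**Figure D4:**
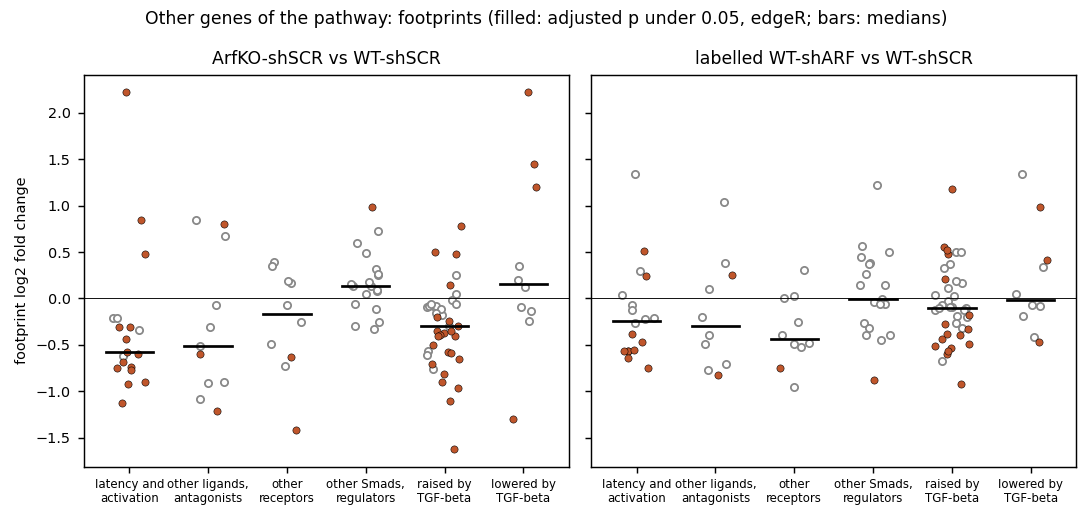
Footprint log2 fold change (vertical axis) of every tested gene of the 6 pathway lists in ArfKO-shSCR and in the libraries labelled WT-shARF, both against WT-shSCR; filled points have an edgeR adjusted p under 0.05 and bars are list medians. In the knockout 12 of 19 latency and activation genes are filled below 0, and the Smad list lies around 0 with 1 filled point of 19. Of all genes tested in that comparison, 8.95% were called lower and 9.57% higher.

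Other ligands of the family and their antagonists numbered 11 tested, of which none passed in RNA in either comparison with edgeR. In knockout footprints the activin subunits Inhbb (-1.21) and Inhba (-0.59) fell, 2 of 11 tested, where 8.95% of all genes fell and 9.57% rose. The activin antagonist Fst had footprints of 57.2 and 52.5 CPM in WT-shSCR, 95.5 and 101.4 in ArfKO-shSCR and 27.0 and 35.3 in the libraries labelled WT-shARF. Fst was thus higher by 0.81 ± 0.16 in the knockout (adjusted p = 0.000354) and changed by -0.82 ± 0.22 in the libraries labelled WT-shARF (adjusted p = 0.0114, DESeq2 0.0539). Fstl1 footprints were higher by 0.25 in the latter.

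Of 10 other receptors tested, 1 rose in knockout RNA, Cd109 (0.62), a co-receptor that dampens the pathway, and 2 fell in footprints, Acvrl1 (-1.41) and Bmpr1a (-0.64). Of all genes 3.94% rose in knockout RNA, and 8.95% fell in knockout footprints. Cd109 RNA was also higher in the libraries labelled WT-shARF (0.78), where Acvrl1 RNA (-1.42) and Bmpr1a footprints (-0.75) fell. Of 19 other Smads and regulators tested, 2 rose in knockout RNA, the transcriptional repressor Tgif2 (1.51, from 16 and 12 reads to 43 and 54) and Smad5 (1.38, from 29 and 10 reads to 59 and 60). The ubiquitin ligase gene Nedd4l rose in knockout footprints (0.99), 1 of 19 tested, where 9.57% of all genes rose. The phosphatase gene Ppm1a fell by 0.88 in footprints where the label was WT-shARF, 1 of 19 tested, where 5.5% of all genes fell.

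Genes that TGF-beta raises in fibroblasts moved both ways. In the knockout 9 of 40 tested fell and 1 rose in RNA, and 19 of 39 fell and 4 rose in footprints. Of all genes 3.99% fell and 3.94% rose in RNA, and 8.95% fell and 9.57% rose in footprints. Fn1, the matrix protein fibronectin, had 6975 and 9818 CPM of RNA in WT-shSCR against 3072 and 2908, a change of -1.49 ± 0.16 (adjusted p = 7.34e-06); the footprint change was -0.97. The collagen crosslinking enzyme Loxl2 fell (-1.19 in RNA and -1.10 in footprints), and the basement membrane collagen Col4a1 fell by 0.74 in RNA. Cdkn2b, the cell cycle inhibitor gene next to Cdkn2a, had footprints of 84.9 and 63.6 CPM against 22.8 and 26.9, a change of -1.62 ± 0.20 (adjusted p = 2.61e-07). Col3a1, a fibrillar collagen, rose by 0.90 in RNA and 0.78 in footprints. Snai1 and Adam12 footprints rose by 0.50 and 0.48.

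In the libraries labelled WT-shARF 9 of 40 of these genes fell and 3 rose in RNA, and 12 of 39 fell and 5 rose in footprints. Of all genes 4.17% fell and 3.11% rose in RNA, and 5.5% fell and 5.63% rose in footprints. Col3a1 was higher by 1.15 in RNA and 1.18 in footprints, Postn by 0.74 and 0.55, Col1a1 RNA by 0.45 and Adam12 footprints by 0.52. The contractile genes Cnn1 (-1.07) and Acta2 (-0.62) and the matrix gene Fn1 (-0.73) fell in RNA, and Cnn1 (-0.92) and the integrin gene Itga5 (-0.60) in footprints. The summed level of 7 smooth muscle or pericyte markers, which include Acta2, Tagln and Cnn1, was 15023 and 14986 CPM of RNA in WT-shSCR against 10857 and 9570 in these libraries. In ArfKO-shSCR it was 14293 and 14233 CPM.

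Of 10 tested genes that TGF-beta lowers, Mmp3 rose (1.35) and Plin2 fell by 1.01 in knockout RNA. In knockout footprints Mmp3 (1.45), Dcn (2.22) and the cell cycle phosphatase gene Cdc25a (1.20) rose, and Plin2 fell by 1.30. Of all genes 3.94% rose and 3.99% fell in knockout RNA, and 9.57% rose and 8.95% fell in knockout footprints. The libraries labelled WT-shARF had lower Id1 (-0.64 in RNA and -0.46 in footprints) and Id3 RNA (-0.54), while Cxcl12 (0.70 and 0.41) and Cdc25a footprints rose (0.98). Of all genes 3.11% rose and 4.17% fell there in RNA, and 5.63% rose and 5.5% fell in footprints. Over all 6 lists 0 genes changed in TE in the main edgeR fit of either comparison. At an unadjusted p under 0.05 there were 8 of 105 and 9 of 107, counts from which nothing is read, as above. Without the filter on low counts edgeR called 3 higher and 0 lower in the knockout, where 83 of 18203 genes were higher and 40 lower. For the libraries labelled WT-shARF it then called 1 higher, where 30 of 18225 genes were higher and 10 lower. Leaving out some of the libraries also gave TE calls. DESeq2 gave an adjusted p to 47 pathway genes in the knockout and called 3, all higher, which were Bgn (0.56), Nedd4l (1.02) and Fn1 (0.53). Over all genes it called 79 of 1616 there, 65 higher and 14 lower, so nothing particular to the pathway is read from these calls. In the libraries labelled WT-shARF it called 0 of 38 pathway genes, and 55 of 912 over all genes.

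DESeq2 did not call 21 of the 68 changes of pathway genes named above and gave 1 no adjusted p. In knockout RNA these were Ltbp4, Fbn2, Cd109, Smad5, Tgif2 and Mmp3, and in knockout footprints Ltbp4, Acvrl1, Bmpr1a, Snai1, Adam12 and Mmp3. For the libraries labelled WT-shARF they were Fbn2, Id1 and Cxcl12 in RNA, Acvrl1 RNA without an adjusted p, and Fst, Bmpr1a, Ppm1a, Adam12, Id1 and Cxcl12 in footprints. All 68 kept their direction whichever library was left out. How many also kept the call is not given, since leaving out a library leaves 1 in its group. Calls moved with the library left out, as the list counts above show.

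The genes whose levels were most like a member over 6 libraries of each assay were listed as a description. They were picked for high r among 7495 genes, so a high r is no result in itself. The libraries form 3 groups, so likeness includes any shared group difference. For Tgfbr2 these were Pias4 (Pearson's r of 0.95 in RNAseq and 0.97 in ribosome profiling), Ctgf (0.89 and 0.89) and Tmed9 (0.89 and 0.91). For Tgfb2 they were Col1a2 (0.93 and 0.93), Sash1 (0.92 and 0.97) and Pde4dip (0.92 and 0.94), and for Tgfbr1 Tia1 (0.94 and 0.99), Cog3 (0.94 and 0.91) and G3bp2 (0.99 and 0.91). For Tgfb1 they were Pld2 (0.94 and 0.93), Wdr19 (0.91 and 0.86) and Olfm2 (0.87 and 0.86). Tgfb3 had Fbxo6, Hcfc1r1 and Nqo2, and Smad3 had Cdc42ep4, Rheb and Wibg. Smad7 had Bcap31, Ebpl and Zfyve21, and Tgfbi had Galc, Emc6 and Mboat2.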

How the data were processed

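RNA fragments of 17 to 34 nt (RNAseq) and RNase T1 footprints were sequenced by the authors, who removed barcodes and unique molecular identifiers (UMI-tools, cutadapt) and ribosomal RNA (Bowtie2), aligned to mm10 (TopHat) and counted reads on coding sequences (HTSeq), per the labels and the methods; versions and UMI deduplication are not given in the sources used here. The deposited files hold unnormalized read counts, 1 file per library. Rows naming no gene (94.74 to 96.83% of RNAseq and 57.12 to 64.82% of ribosome profiling reads) were left out. The yeast spike-in was not used here, so changes are relative to the library, and global changes of translation are not seen.

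edgeR 4.0.16 (R 4.3.3; TMM factors, filterByExpr, quasi-likelihood F test, Benjamini-Hochberg adjustment over all genes tested, threshold 0.05) was fitted to the 4 libraries of each RNA or footprint comparison and to 8 libraries for TE (interaction of assay and group). SE are the log2 fold change over the root of F. An exact permutation test of 2 against 2 libraries cannot go below 0.33 and was not used. CPM were scaled with TMM factors over 12 libraries. Levels per kilobase used the coding length of GENCODE vM21 (GRCm38); start sites came from RefSeq (GRCm38.p6). DESeq2 1.42.0, other factors and filters, 1 fit of all groups, a replicate block and leaving out each library were alternatives. The fits were also run on simulated data. The changes planted there were larger than the main change of any member, in genes with more reads than Tgfbr3. That run therefore does not tell how well smaller changes or low counts are detected. Replicates of a group differed beyond counting noise (chi-square per gene of 3.77 to 6.97). Counting error is covered by the reads given; PCR duplicates may remain.

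All 9 members are named; of each pathway list, up to 3 called genes per direction with the largest change; and the 3 genes most like a member (mean of at least 10 CPM in each assay, log2 CPM with a prior count of 2, ranked by the smaller r). The members and lists were chosen with earlier results of these data known.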

Additional observations from a re-analysis of the deposited data

Results flagged for a closer look

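The change against WT-shSCR differed between ArfKO-shSCR and the libraries labelled WT-shARF for 2 members in footprints, by the direct test of these groups. Tgfbr1 differed by 1.53 (log2), since it was 0.48 above WT-shSCR in the knockout and -1.06 from it in the libraries labelled WT-shARF. Tgfb2 differed by -0.53, with -0.44 in the knockout and 0.09 in the libraries labelled WT-shARF. The level of Cdkn2a RNA was 27.0 and 31.4 CPM in ArfKO-shSCR but 625 and 651 where the label was WT-shARF; its part in the differences was not tested.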

How the results depend on the processing

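The number of members called moved with the tool and the library left out. In knockout footprints it was 2, 0 with DESeq2, 1 without the count filter and 0 to 1 when a library was left out. In knockout RNA it was 1, and 0 to 1 when a library was left out. In the libraries labelled WT-shARF the RNA count was 1, 0 with DESeq2 and 0 in 1 fit of all groups. The Tgfbr2 RNA call was lost whichever library was left out, and any member called then was Tgfbr1. The footprint count was 1, and 0 with DESeq2. It also moved with the library left out. Without WT-shSCR RiboSeq replicate 2 the member called was Tgfbi (0.80, higher) and not Tgfbr1 (-0.63). Between ArfKO-shSCR and the libraries labelled WT-shARF it was 0 in RNA (1, Tgfbr1, without the filter) and 2 in footprints (3 with RLE factors, where Tgfbr2 joins, 1 with DESeq2, 0 to 2 with a library left out, where Tgfbi replaced Tgfb2 without ArfKO-shSCR RiboSeq replicate 2). TE counts stayed at 0 under every alternative run. Replicate numbers do not pair these samples (r of deviations from -0.081 to 0.052 over 8223 genes); with the replicate block, 2 members (Tgfbr1 joins, adjusted p = 0.0186) were called in RNA of the libraries labelled WT-shARF, and no other member count moved.

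Signs turned only for changes that did not pass. Smad7 in knockout RNA was -0.021 with upper quartile factors. With a library left out, knockout RNA ranged from -0.97 to 0.029 for Tgfb1, -0.31 to 0.00048 for Tgfb3, -0.30 to 0.44 for Tgfbr1 and -0.023 to 0.047 for Smad7; knockout footprints from -0.21 to 0.017 for Smad3 and -0.42 to 0.31 for Tgfbi; and knockout TE from -0.93 to 0.094 for Tgfb1. In the libraries labelled WT-shARF, RNA ranged from -0.84 to 0.25 for Tgfb1, -0.17 to 0.24 for Tgfb2, -0.67 to 0.21 for Smad3 and -0.53 to 0.12 for Smad7; footprints from -0.033 to 0.21 for Tgfb2, -1.95 to 0.27 for Tgfbr3 and -0.16 to 0.24 for Smad3; and TE from -0.76 to 0.33 for Tgfb1 and -0.17 to 0.25 for Tgfb2. The cause was not tested.

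Over all genes DESeq2 called 414 (edgeR 845) in knockout RNA, 1153 (1988) in knockout footprints, 291 (765) in RNA and 691 (1147) in footprints of the libraries labelled WT-shARF, and 79 (22) and 55 (4) in TE. With 7 to 49 RNA reads per library in the libraries labelled WT-shARF for Tgfbr1, and 3 to 38 reads for Tgfbr3 in all, depth limits both genes.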
